A study of Mus musculus with 6 samples.

Results

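Growth factors are secreted or membrane-tethered proteins that bind receptor tyrosine kinases on the cell surface. Binding joins receptors into dimers that phosphorylate each other, and adaptor proteins then pass the signal to the RAS-RAF-MAPK and PI3K-AKT cascades, which feedback inhibitors and ETS transcription factors adjust. In the testis, Leydig cells and their precursors use several of these systems, among them PDGFA with its receptor and KIT ligand with KIT.

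The genes described here are 43 growth factors and receptor tyrosine kinases, 24 ligands and 19 receptors, out of 23462 gene symbols that could be named on the array. They were listed by name, but with earlier results of these data known. They were found through the transcript accession that the scanner files give for each probe, which gave 74 probes. They fall into the FGF, PDGF, EGF, KIT and CSF1, HGF, VEGF, TAM and neurotrophic families.

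The cells were TM3, a line derived from Leydig cells of immature mouse testis that the labels call a testicular somatic cell line. 3 samples were exposed for 24 h to 10 µM 4-nitrophenol (PNP, written nPNP in the sample descriptions), a pollutant found in diesel exhaust and left by the breakdown of the insecticide parathion. The 3 control samples had 0 µM PNP at the same time of 24 h, and the labels give no other agent and no genetic change in either group. The line is 1 cell line, so the samples do not differ by animal, and whether the 3 samples of each group were grown apart is not in the labels. The p-values therefore cover only the spread among these arrays, part or all of which may be technical. Of 7 Leydig markers that could be named, 2 were well above background on all 6 arrays, the steroidogenic regulator Nr5a1 and the cholesterol carrier Star. Cyp11a1, Hsd3b6 and Lhcgr were above background on none of the 6. All 7 markers of peritubular myoid cells or fibroblasts were above background on all 6 arrays, as were 4 of 7 Sertoli cell markers (Sox9, Dmrt1, Rhox5 and Wt1) and 3 of 7 germ cell markers (Ddx4, Sycp3 and Zbtb16).

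All 6 samples were hybridised to 1 slide with 1 dye and scanned together. The 3 control arrays and PNP array 1 lay in slide row 1, and PNP arrays 2 and 3 in row 2. Slide row and treatment therefore largely coincided, and their effects cannot be fully told apart. The share of spots well above background was 59.9, 62.6 and 62.2% on the PNP arrays and 62.3, 62.2 and 61.8% on the control arrays. The share of spots that the scanner software marked as outliers, and that were left out, was 12.3, 13.2 and 11.5% on the PNP arrays and 9.07, 7.66 and 6.53% on the control arrays. These 2 sets did not overlap (two-sided exact permutation test, p = 0.1, the smallest that 3 against 3 arrays can give). Values below are scaled log2 signals, the log2 of the processed signal minus the array's 75th percentile, so 0 is the level of that percentile and a difference of 1 is 2-fold. They compare 1 probe between samples and do not rank genes against each other. The number of arrays limits the precision.

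Most of the growth factor systems had both a ligand and a receptor with signal in these cells. Of the 43 genes, 33 had a probe well above background on all 6 arrays, 18 of the 24 ligands and 15 of the 19 receptors. Another 2, Flt1 and Hgf, were above background on some arrays, and 8 were not above background on any array. Per array, 35, 34 and 34 of the 43 genes were above background on the PNP arrays, and 34, 35 and 35 on the control arrays.

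The FGF system acts in growth and in epithelium to mesenchyme signalling. The ligands Fgf1, Fgf2, Fgf7, Fgf10 and Fgf18 and all 4 receptors, Fgfr1 to Fgfr4, were above background on all 6 arrays. Fgf9, which in the fetal testis promotes Sertoli cell fate, was above background on no array. Of the PDGF system, Pdgfa, Pdgfb and Pdgfc and both receptors, Pdgfra and Pdgfrb, were above background on all 6 arrays, and Pdgfd was on none. Of the EGF system, the ligands Egf, Areg, Ereg, Hbegf and Nrg1 and the receptors Egfr and Erbb2 were above background on all 6 arrays. The ligands Tgfa and Btc, and Erbb3, a receptor that binds neuregulins and signals through its partner kinases, were above background on none.

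Kitl and its receptor Kit, and Csf1 and its receptor Csf1r, were each above background on all 6 arrays. The Kit probe was faint, at -5.51 to -4.98. That lies within the range of an Hgf probe (-5.62 to -4.77) above background on only 1 PNP and 2 control arrays. CSF1R is best known from macrophages. Of 7 macrophage markers, Cd68, Itgam and Lyz2 were above background on all 6 arrays, while Ptprc (CD45), Adgre1 (F4/80), Mrc1 and the transcription factor Spi1 were not above background on any. Met, the receptor of hepatocyte growth factor, was above background on all 6 arrays, while 1 of the probes of Hgf or the other was above background on PNP arrays 1 and 3 and on control arrays 2 and 3. Vegfb and Vegfc were above background on all 6 arrays. The endothelial receptor Kdr was on none, and Flt1, the receptor of VEGFB, was on 2 of 3 PNP arrays and 3 of 3 control arrays. None of 6 endothelial markers was above background on all 6 arrays, and Cdh5, Emcn, Tek and Tie1 were on none.

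The TAM system, named after its receptors Tyro3, Axl and Mertk, which bind GAS6 and take part in the clearance of dying cells, was above background throughout, ligand and all 3 receptors. Of the neurotrophic genes, Ntrk2, the receptor of BDNF, was above background on all 6 arrays. Gdnf, the factor that Sertoli cells supply to spermatogonial stem cells, and its signalling receptor Ret were not above background on any array, and neither were the GDNF family co-receptors Gfra1 and Gfra2. Detection belongs to a probe as well as to a gene, since Fgf1, Fgf2, Fgfr4 and Ntrk2 each had 1 probe above background on all 6 arrays and another above background on none.

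**Figure D1:**
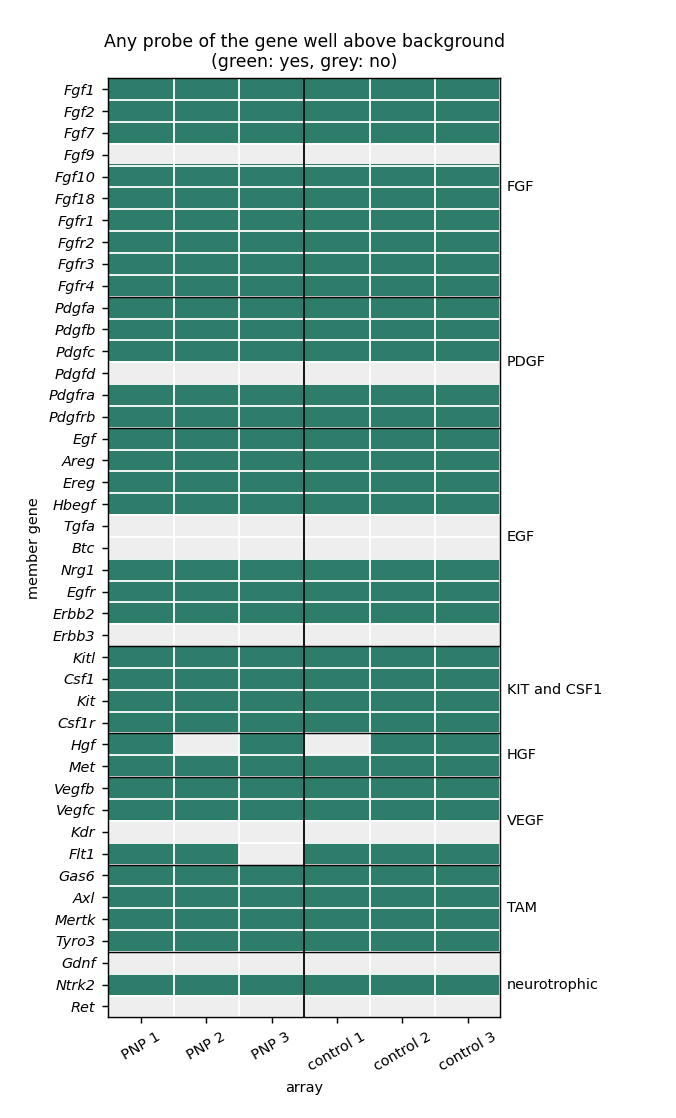
The 43 genes run down the page by family and the 6 arrays across it, PNP arrays at left and control arrays at right, and a cell is green where any probe of the gene was well above background and grey where none was. 33 rows are green on all 6 arrays, 8 are grey on all 6, and Hgf and Flt1 are mixed.

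Promoter sequence was set beside detection, since it was no part of the choice of genes. RefSeq promoter windows of build GRCm38.p6, 300 bases around a transcription start, were counted for 33 of the genes. The other 10 had no matched window or were left out by choice. Those left out by choice were Fgf1, Pdgfrb, Hbegf and Csf1r, each above background on all 6 arrays. The shares over all windows were not restricted in this way, so the sets compared were filtered differently. The GC box was searched as GGGCGG on both strands, counting overlapping matches. It occurred in 22 of 29 windows (75.9%) of 25 genes above background on all 6 arrays, in 2 of 7 windows (28.6%) of 6 genes above background on no array, and in 35.7% of all 32851 windows, of genes detected or not. The TATA box (TATAAA), the AP-1 site (TGACTCA) and the E-box (CACGTG) were searched the same way. In the same order, the TATA box occurred in 6.9, 28.6 and 13.6% of windows. The AP-1 site occurred in 3.45, 0 and 5.2%, and the E-box in 6.9, 0 and 7.15%. The median GC content was 65.3% in the windows of the genes above background on all 6 arrays, 56.7% in those of the genes above background on none, and 52.7% over all windows. These are descriptions of the letters with no test, and the GC box and GC content are not independent of each other. The shares over all genes above background on all 6 arrays were not computed, so a trait of growth factor genes cannot be read from them.

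5 windows are printed 5' to 3' along the gene's own strand, with each GC box in capitals. They are 3 genes above background on all 6 arrays, the ligand Pdgfa (chr5:138994232-138994531, minus strand, 1 of its 2 windows), the receptor Tyro3 (chr2:119799264-119799563, plus strand) and the ligand Kitl (chr10:100015571-100015870, plus strand), and 2 ligands above background on no array, Pdgfd (chr9:6168236-6168535, plus strand) and Btc (chr5:91402945-91403244, minus strand). Pdgfa and Pdgfd are shown because they are ligands of 1 family that differed in detection.
Pdgfa: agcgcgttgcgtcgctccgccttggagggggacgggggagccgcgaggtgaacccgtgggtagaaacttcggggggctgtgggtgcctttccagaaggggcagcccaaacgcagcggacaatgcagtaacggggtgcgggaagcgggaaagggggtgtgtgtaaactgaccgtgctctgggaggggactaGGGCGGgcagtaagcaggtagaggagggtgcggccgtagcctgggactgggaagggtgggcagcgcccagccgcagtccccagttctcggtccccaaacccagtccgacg
Tyro3: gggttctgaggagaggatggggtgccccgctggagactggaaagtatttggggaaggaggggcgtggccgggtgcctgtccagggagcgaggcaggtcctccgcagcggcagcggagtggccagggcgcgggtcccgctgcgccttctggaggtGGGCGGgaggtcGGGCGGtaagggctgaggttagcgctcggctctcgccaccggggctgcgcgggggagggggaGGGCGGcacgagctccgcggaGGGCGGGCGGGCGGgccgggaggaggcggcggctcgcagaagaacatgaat
Kitl: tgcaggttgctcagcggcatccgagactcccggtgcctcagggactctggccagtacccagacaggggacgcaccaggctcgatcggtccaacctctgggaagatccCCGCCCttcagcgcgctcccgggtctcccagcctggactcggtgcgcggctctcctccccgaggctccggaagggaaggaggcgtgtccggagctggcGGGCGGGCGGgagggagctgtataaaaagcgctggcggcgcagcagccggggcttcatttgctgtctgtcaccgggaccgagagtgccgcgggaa
Pdgfd: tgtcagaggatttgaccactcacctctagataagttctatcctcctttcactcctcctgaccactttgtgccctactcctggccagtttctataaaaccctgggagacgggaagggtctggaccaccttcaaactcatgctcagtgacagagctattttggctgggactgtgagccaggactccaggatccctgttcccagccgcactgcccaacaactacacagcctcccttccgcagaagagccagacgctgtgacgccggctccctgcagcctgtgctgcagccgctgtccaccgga
Btc: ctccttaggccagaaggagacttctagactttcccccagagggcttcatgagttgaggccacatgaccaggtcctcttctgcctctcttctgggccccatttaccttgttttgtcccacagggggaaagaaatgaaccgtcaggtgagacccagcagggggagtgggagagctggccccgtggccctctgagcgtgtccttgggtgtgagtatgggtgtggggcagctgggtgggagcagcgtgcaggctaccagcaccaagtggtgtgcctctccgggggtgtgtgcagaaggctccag
The printed windows hold 1 GC box in Pdgfa, 6 in Tyro3 and 3 in Kitl, and 0 in Pdgfd and Btc, with a GC content of 67, 73.3, 68.7, 56.7 and 60.3%. Genes on either side of the detection line did not all follow this pattern. Tgfa and Kdr, not above background on any array, had 2 GC boxes each, while Fgf7, Fgfr2, Pdgfc, Pdgfra, Egf and Erbb2, above background on all 6 arrays, had 0.

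No growth factor or receptor differed past the threshold between PNP and control cells. A gene entered the test, limma over 13138 genes with Benjamini-Hochberg adjustment, if the scanner software put a probe above background on all 3 PNP or all 3 control arrays and 2 or more unmarked values remained in each group, which 32 of the 43 genes did, 16 ligands and 16 receptors. At an adjusted p of 0.05, 0 of the 32 were called, and 0 of all 13138 genes (0%), with a smallest adjusted p by limma of 0.766 among the 32 and 0.148 among all genes. At an unadjusted p under 0.05, 0 of the 32 passed, against 856 of all genes (6.52%), of which 660 were higher in PNP (5.02% of all genes) and 196 lower (1.49%). Thus 77.1% of these were higher in PNP, against 47.4% with arrays scaled on their median. The genes left out were the 8 above background on no array, Hgf, and Ereg and Gas6, whose spots were marked as outliers on too many arrays.

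In these bulk samples, fewer cells that express a gene and less of its RNA per cell cannot be told apart. The intervals limit how large a difference between these arrays could have been missed, for the probe that stands for each gene and under this scaling. The 95% interval of the difference lay within 2-fold in either direction for 31 of the 32 genes, Flt1 being the exception, and within 1.5-fold for 27. Over all genes these shares were 97.9% and 84.4%. The median half-width of the interval was 1.22-fold in the 32 genes and 1.21-fold over all genes. Differences of PNP minus control ranged from -0.54 in Flt1 to 0.22 in Ntrk2, with a median of 0.01, against 0.04 over all genes. Flt1 entered the test only through the control arrays, where it was higher, and was not tested when all 6 arrays had to be above background. They were above 0 in 17 of the 32 genes, against 63% of all genes, and with arrays scaled on their median the count was 12 of 32, against 44.2% of all genes. Ligands had 5 differences above 0 and 11 below, with a median of -0.03, which became 9 above and 7 below with a normexp background. Receptors had 12 above and 4 below, with a median of 0.05, which became 7 above and 9 below with arrays scaled on their median. The PNP and control values did not overlap in 3 of the 32 genes, Hbegf, Fgfr1 and Fgf10, against 13.4% of all genes.

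**Figure D2:**
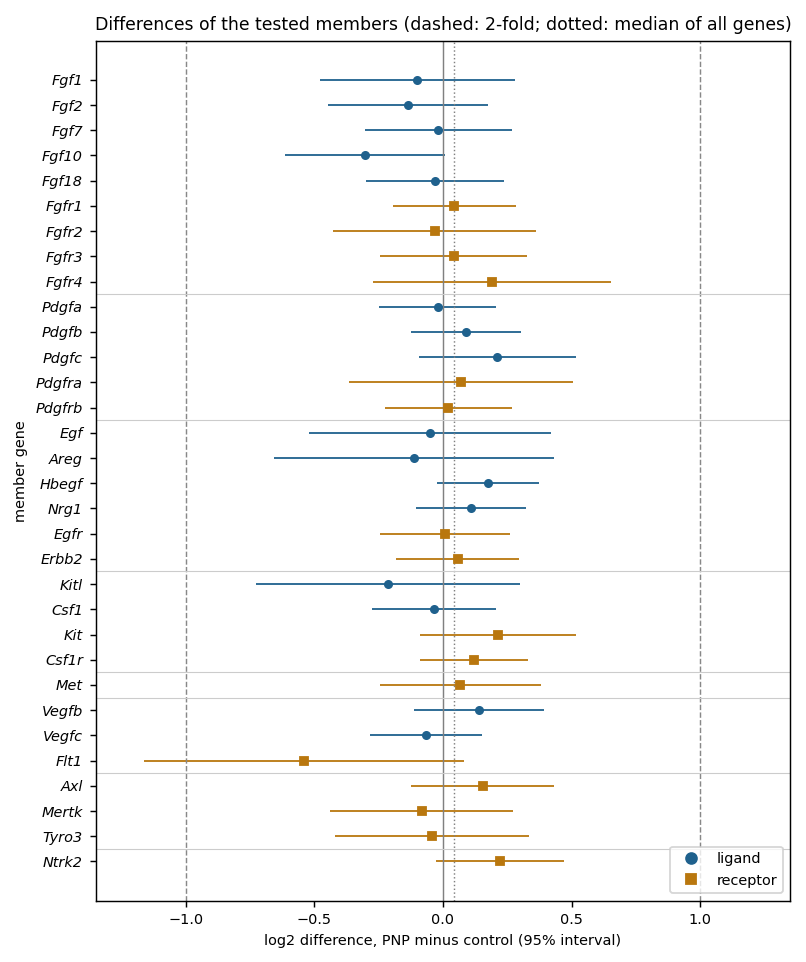
The log2 difference, PNP minus control, is drawn with its 95% interval from limma for the 32 tested genes by family, circles for ligands and squares for receptors. All intervals include 0, and the interval of Flt1 alone passes the dashed line at 2-fold.

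In the FGF family, Fgf10, a mesenchymal ligand of FGFR2, had the smallest unadjusted p of the 32 genes. Its scaled log2 signals were -0.10 and 0.03 on PNP arrays 1 and 3, against 0.21 and 0.32 on control arrays 1 and 3, as the spots of both second replicates were marked as outliers. Both PNP values lay below both control values. Values of PNP were all below those of control in 3.75% of all genes, and in 18.2% of the 424 genes with 2 values in each group. The difference was -0.30 (SE 0.13, 95% interval -0.61 to 0.01, adjusted p = 0.766 by limma, unadjusted p = 0.0549). With the marked spots kept, the same probe read -0.10, 0.46 and 0.03 on the PNP arrays against 0.21, 0.32 and 0.32 on the control arrays. PNP array 2 was then the highest of the 6, the groups overlapped and the difference was -0.15. The gene's second probe gave -0.24, and without PNP replicate 1 the difference had the opposite sign, 0.11.

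Fgf2, a ligand held in the extracellular matrix, had -3.78, -4.22 and -3.78 on the PNP arrays against -3.82, -3.83 and -3.72 on the control arrays. Only PNP array 2 lay below the controls, and the groups overlapped (difference -0.14, SE 0.13, adjusted p = 0.944 by limma). Fgfr1 had 2.24 and 2.29 on PNP arrays 2 and 3 against 2.21, 2.22 and 2.22 on the control arrays. The PNP values lay just above the controls, by a difference of 0.04 (SE 0.10, adjusted p = 0.963 by limma), and PNP array 1, left out as an outlier, read 1.73. With that spot kept the groups overlapped and the difference was -0.13. Its 4 tested probes ranged from -0.07 to 0.32. Of the 47 tested probes of the growth factor and receptor genes, the one at 0.32 alone had an unadjusted p under 0.05, against 6.99% of all 27221 tested probes. Its adjusted p by limma was 0.709 over all probes. The other FGF genes, Fgf1, Fgf7, Fgf18, Fgfr2, Fgfr3 and Fgfr4, overlapped between groups, with differences from -0.10 to 0.19.

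In the PDGF family, Pdgfc, a ligand of PDGFRA, had 1.42, 0.92 and 1.20 on the PNP arrays against 0.95, 0.98 and 0.98 on the control arrays. PNP arrays 1 and 3 were above all controls and PNP array 2 was below them. The difference was 0.21 (SE 0.13, adjusted p = 0.876 by limma), and over the other settings it ranged from 0.09 without PNP replicate 1 to 0.45 with the slide row as a block, which compares PNP array 1 alone with the controls. Pdgfb, a ligand of both PDGF receptors, had 1.00, 0.96 and 0.85 on the PNP arrays against 0.90, 0.85 and 0.79 on the control arrays. The groups overlapped at a difference of 0.09 (SE 0.09, adjusted p = 0.946 by limma). Pdgfa, Pdgfra and Pdgfrb had differences of -0.02, 0.07 and 0.02. The tested Pdgfra probe has the accession of a noncoding transcript, and the gene's brightest probe gave -0.14 with its marked spots kept.

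In the EGF family, Hbegf, a membrane-tethered ligand of EGFR that is released by shedding, had 0.27, 0.19 and 0.23 on the PNP arrays against 0.06, 0.04 and 0.08 on the control arrays. All 3 PNP values lay above all 3 controls, as they did for 9.66% of all genes. The difference was 0.17 (SE 0.09, 95% interval -0.02 to 0.37, adjusted p = 0.810 by limma), or 1.13-fold. It was above 0 under all 18 other settings, from 0.11 to 0.21. Nrg1, the ERBB3 and ERBB4 ligand neuregulin, had 1.24, 1.17 and 1.07 on the PNP arrays against 1.11, 1.03 and 1.03 on the control arrays. The groups overlapped (difference 0.11, SE 0.09, adjusted p = 0.921 by limma), and its second probe gave -0.07. Egfr and Erbb2 had differences of 0.01 (95% interval -0.24 to 0.26) and 0.06 (-0.18 to 0.30), and the dimmer ligands Egf and Areg had -0.05 (-0.52 to 0.42) and -0.11 (-0.66 to 0.43).

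Kit, the receptor of KIT ligand, had -5.08, -5.39 and -4.98 on the PNP arrays against -5.27, -5.29 and -5.51 on the control arrays. PNP array 2 lay within the controls and the other 2 PNP arrays above them (difference 0.21, SE 0.13, adjusted p = 0.875 by limma). Csf1r had 1.40, 1.36 and 1.28 on the PNP arrays against 1.30, 1.18 and 1.19 on the control arrays. The groups overlapped at 1 value (difference 0.12, SE 0.09, adjusted p = 0.903 by limma), and its second probe gave -0.06. The difference of Csf1 was -0.03, and that of its brightest probe, marked on all 6 arrays, is given with the outlier spots. Met had -0.62, -0.21 and -0.65 on the PNP arrays against -0.44, -0.62 and -0.62 on the control arrays, where PNP array 2 stood above the other arrays (difference 0.07, SE 0.14, adjusted p = 0.961 by limma). A brighter Met probe kept too few unmarked values to be tested.

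Flt1 had the widest interval. Its scaled log2 signals were -4.70, -4.48 and -5.63 on the PNP arrays against -4.55, -4.21 and -4.43 on the control arrays. PNP array 3, the one on which its probe was not well above background, was the lowest, and PNP array 2 lay within the controls. The difference was -0.54 (SE 0.27, 95% interval -1.16 to 0.08, adjusted p = 0.811 by limma), and with the background corrected by normexp it was -0.12. Without PNP replicate 3 it was -0.19, and without PNP replicate 2 it was -0.77. Vegfb, a ligand of FLT1, had 0.82, 0.69 and 0.98 on the PNP arrays against 0.59, 0.78 and 0.71 on the control arrays. The groups overlapped (difference 0.14, SE 0.11, adjusted p = 0.912 by limma). The difference of Vegfc, a ligand of lymphatic endothelium, was -0.07, and that of its second probe was 0.22.

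Axl had 3.38, 3.12 and 2.96 on the PNP arrays against 3.02, 2.99 and 2.99 on the control arrays. PNP arrays 1 and 2 lay above the controls and PNP array 3 below them (difference 0.15, SE 0.12, adjusted p = 0.911 by limma). Its second probe gave -0.17, and the first gave 0.38 with the slide row as a block, 0.04 without PNP replicate 1 and 0.03 with quantile normalization and in the authors' deposited table of normalized values. Mertk had -2.41 and -2.83 on PNP arrays 1 and 2 against -2.57, -2.42 and -2.62 on the control arrays. The 2 PNP values lay on either side of the controls (difference -0.08, SE 0.15, adjusted p = 0.958 by limma), and Tyro3 had a difference of -0.04. Ntrk2 had -1.51, -1.37 and -1.26 on the PNP arrays against -1.48, -1.62 and -1.70 on the control arrays. PNP array 1 lay within the controls and the other 2 above them (difference 0.22, SE 0.11, 95% interval -0.03 to 0.47, adjusted p = 0.805 by limma).

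**Figure D3:**
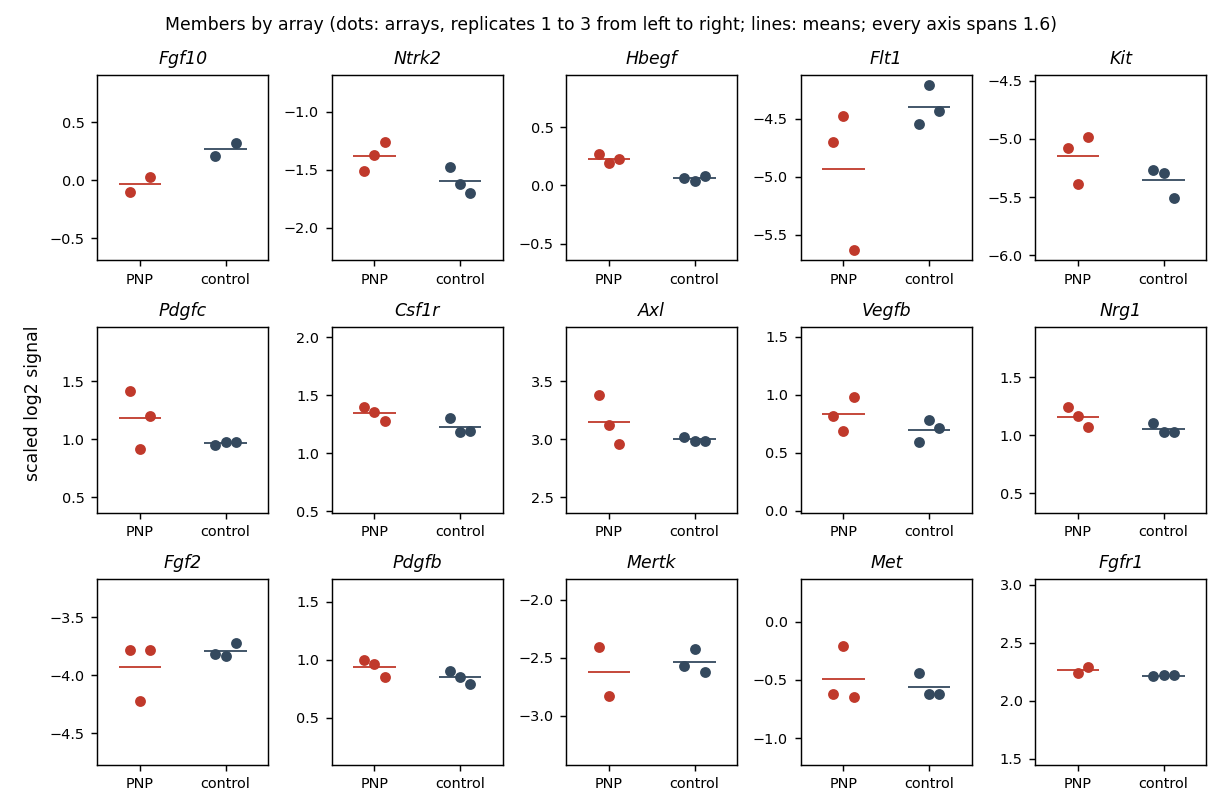
Scaled log2 signals of 15 genes are shown by array, PNP at left and control at right, with dots for arrays and lines for group means, in order of unadjusted p. The groups are apart in Fgf10, Hbegf and Fgfr1 and overlap in the other 12.

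Different probes of a gene often differed in sign. Of 12 genes with 2 or more tested probes, 3 (Fgf10, Pdgfa and Csf1) had differences of 1 sign and 9 had both signs. In Egfr, for example, the 3 probes gave 0.01, 0.16 and -0.14.

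**Figure D4:**
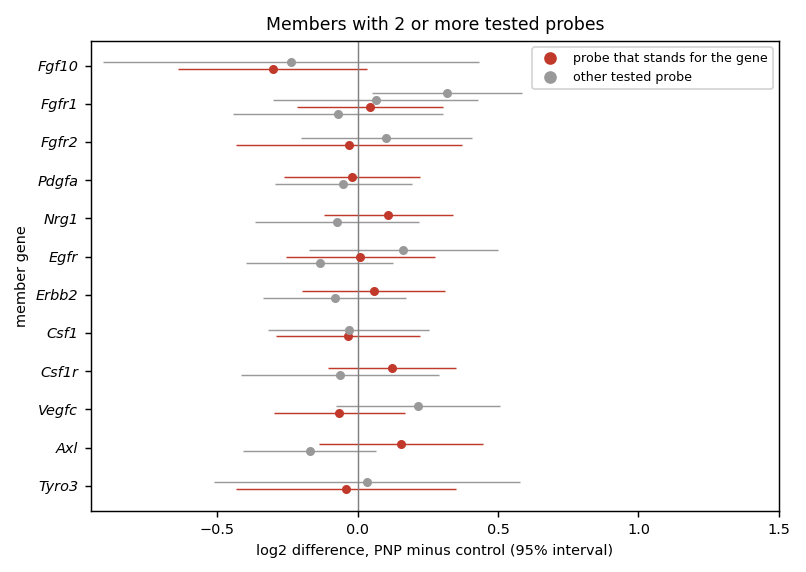
The log2 difference, PNP minus control, with its 95% interval from the fit of all probes, is drawn for each tested probe of the 12 genes with several, red for the brightest probe, which stands for the gene, and grey for the others. Only 1 Fgfr1 probe, at 0.32, has an interval that leaves out 0.

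The outlier marks decided which probes of some ligands could be tested. Of the 74 probes, 47 were tested and 10, of 8 genes, were above background in a group but kept too few values. With the marked spots kept, 34 of the 43 genes were tested and Kitl was the only one with an unadjusted p under 0.05, against 5.93% of all 15046 genes, while 4 of the 34, Kitl, Gas6, Hbegf and Met, had groups that did not overlap, against 11% of all genes.

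The brightest Kitl probe, marked on all 6 arrays, read 0.46, 0.46 and 0.51 on the PNP arrays against 0.76, 0.77 and 0.80 on the control arrays. All PNP values lay below all controls, with a difference of -0.30 (95% interval -0.50 to -0.10, unadjusted p = 0.00829, adjusted p = 0.836 by limma). The probe with enough unmarked values gave -0.21 with groups that overlapped (SE 0.22, adjusted p = 0.946 by limma), and the other marked probe gave -0.43. The unmarked probe gave -0.44 without PNP replicate 1, -0.02 without PNP replicate 2 and 0.23 with the slide row as a block. Gas6, marked on PNP arrays 1 and 2, read 2.93, 2.98 and 2.88 on the PNP arrays against 2.64, 2.83 and 2.63 on the control arrays. All PNP values lay above all controls, with a difference of 0.23 (95% interval -0.002 to 0.453, unadjusted p = 0.0516, adjusted p = 0.843 by limma). Ereg, marked on 5 arrays, gave 0.20 (adjusted p = 0.918 by limma).

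The brightest Csf1 probe, marked on all 6 arrays, read 2.18, 2.44 and 2.04 on the PNP arrays against 2.39, 2.48 and 2.43 on the control arrays. PNP arrays 1 and 3 lay below the controls and PNP array 2 within them, with a difference of -0.22 (adjusted p = 0.876 by limma). The brighter Met probe, marked on PNP arrays 1 and 2, read 2.79, 2.77 and 2.69 on the PNP arrays against 2.63, 2.57 and 2.67 on the control arrays. All PNP values lay above all controls, with a difference of 0.13 (adjusted p = 0.913 by limma), whereas the groups of the tested Met probe overlapped. The part of spot quality in these values was not tested, and the PNP arrays had more marked spots than the control arrays, as given above.

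**Figure D5:**
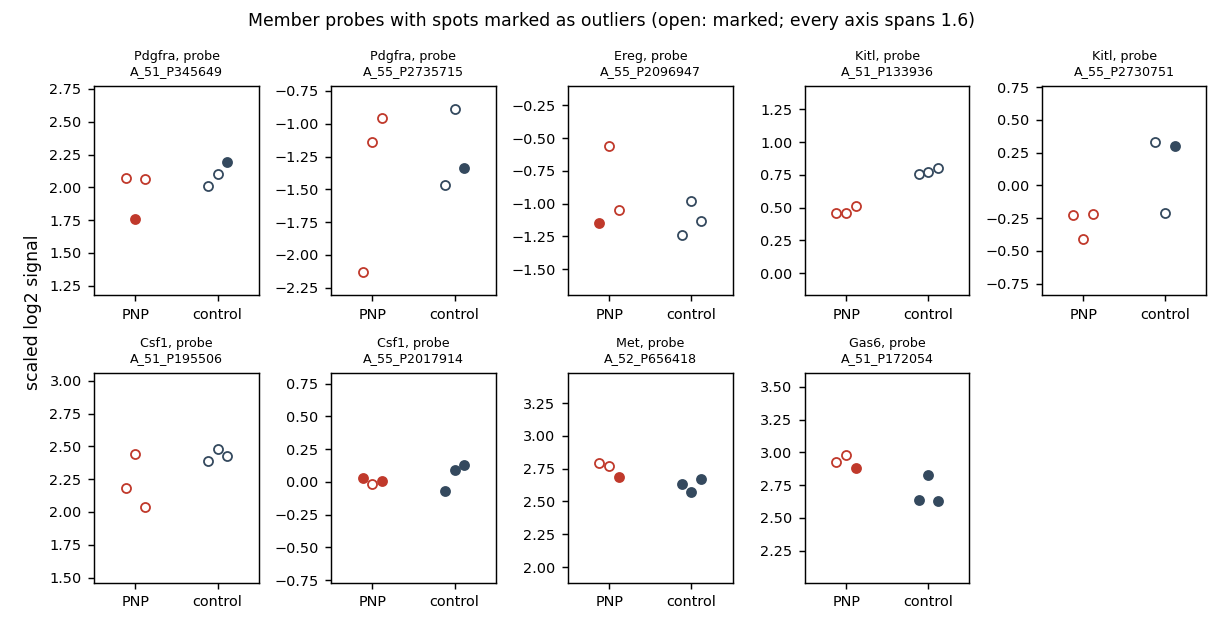
Scaled log2 signals by array, PNP at left and control at right, are shown for the 9 probes of Pdgfra, Ereg, Kitl, Csf1, Met and Gas6 that had a marked spot, open circles for marked and filled circles for unmarked spots. In the first Kitl probe all 6 spots are marked, and the PNP values of 0.46 to 0.51 lie below the control values of 0.76 to 0.80.

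The genes that carry the signal onward were read from the same fit, through a list of 60 co-receptors, adaptors, kinases, feedback inhibitors and ETS factors. Of these, 46 were tested, 11 were above background on all 6 arrays but kept too few values, and 3 were above background on none. At an adjusted p of 0.05 by limma, 0 of the 46 were called, and 1 had an unadjusted p under 0.05, against the 6.52% of all genes. The median difference was 0.01, against 0.04 over all genes, with 27 differences above 0 and 19 below, and all 46 intervals lay within 2-fold.

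The 6 tested co-receptors all had differences above 0, from 0.02 to 0.24 with a median of 0.13, and 4 of 6 did with quantile normalization. Of all genes, 63% were above 0, and 53.7% with quantile normalization. One had an unadjusted p under 0.05, Sdc1, a heparan sulfate proteoglycan that presents FGFs, with 0.24 (SE 0.10, unadjusted p = 0.0414, adjusted p = 0.740 by limma). Nrp2, a co-receptor of VEGFs and semaphorins, had 0.18 (adjusted p = 0.877 by limma). Of 10 adaptors, 7 were above 0, with a median of 0.04, and 2 with arrays scaled on their median, where 44.2% of all genes were above 0. The largest adaptor difference was that of Frs3, which docks on FGF and neurotrophin receptors (0.21, adjusted p = 0.830 by limma). The 9 RAS-RAF-MAPK genes had a median of -0.04 and the 8 PI3K-AKT genes one of 0.02 (-0.04 with arrays scaled on their median), with the kinase Akt1 at -0.18 (adjusted p = 0.845 by limma). Of 11 feedback inhibitors, 4 were above 0 and 7 below, with a median of -0.08 (0.04 with a normexp background). Those above 0 were Spred3 (0.15), Dusp6 (0.08), Il17rd (0.07) and Spred2 (0.01). Those below included the RAS-MAPK inhibitor Spred1 at -0.30 (adjusted p = 0.811 by limma). Spry1, Spry2 and Spry4 kept too few values to be tested. Dusp5, at -0.08, entered the test only through the control arrays, where it was higher.

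Both tested ETS factors that FGF signalling is known to induce had differences below 0, here and under each other scaling and background. Etv4 read -2.35, -1.44 and -2.23 on the PNP arrays against -1.44, -1.65 and -1.49 on the control arrays. PNP arrays 1 and 3 lay below all controls and PNP array 2 was level with the highest of them (difference -0.48, SE 0.22, 95% interval -0.99 to 0.03, adjusted p = 0.791 by limma). Etv5 read 0.01, 0.56 and -0.25 on the PNP arrays against 0.44, 0.23 and 0.49 on the control arrays. PNP array 2 was the highest of all arrays and the groups overlapped (difference -0.28, adjusted p = 0.892 by limma). Etv1 was above background on no array.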

How the data were processed

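Total RNA of 6 TM3 samples, 3 PNP and 3 control by the dose in the labels, was hybridised to Agilent one-colour mouse arrays. The deposited scanner files hold intensity values, made with Agilent Feature Extraction 11.5.1.1 per the file headers and 10.7 per the submitters' processing notes, on a design of build mm9. The dye is Cy3 in the labels, but the columns are those of a red channel. A normalized table, also deposited by the authors, is in log2 units and uncentred, and the sources used here do not give its method. Its columns each have a median of 8.278, correlate with the scanner values of their own arrays at 0.99965 or more, and run in the same direction.

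The measure was log2 of the processed signal after subtracting the 75th percentile of its array. Spots marked non-uniform or as population outliers were dropped and a probe's remaining spots averaged. This removed 6114 of 33335 probes above background in PNP or control. Probes were named by accession in RefSeq genes of GRCm38.p6, which named 33767 of 56605. The brightest tested probe over the 6 arrays stood for its gene. limma 3.58.1 in R 4.3.3 (lmFit, eBayes, two-sided, no covariates, Benjamini-Hochberg over 13138 genes) gave the differences, intervals and p-values. Its results on simulated data are not given here.

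Values on every array are given for genes past the threshold, at an unadjusted p under 0.05 or with groups that did not overlap, and for the 2 of smallest p in each family. Genes shown with outlier spots kept, and the promoters printed, were chosen after their values were seen. Of the 60 downstream genes, the 3 of smallest p in each direction are named. Etv5, Dusp5 and the feedback inhibitors above 0 were added after their values were seen. The members and lists were chosen with earlier results of these data known. Each result was recomputed under other scalings, backgrounds, filters, probe rules and blocks and without each sample, 17 settings in all, and under 1 more chosen after seeing the data. No sequence of chromosome 18 is printed, and the growth factor and receptor genes on it were left out of the promoter counts.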

Additional observations from a re-analysis of the deposited data

How the results depend on the processing

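None of the growth factors, receptors or downstream genes passed the adjusted threshold by limma under any of the 17 other settings or the 1 chosen after seeing the data, with 0 to 4 of the growth factor genes at an unadjusted p under 0.05. Of all genes, 0 were called, except for 1 with odd or even slide columns as a block (Gm27166, adjusted p = 0.00141 by limma) and 1 each without PNP replicate 2 (1600027J07Rik, 0.0457) and without control replicate 2 (Gm27166, 0.00193), so leaving out 1 replicate gave 0 to 1. The most growth factor genes at an unadjusted p under 0.05 came without PNP replicate 2, namely Fgf10, Flt1, Kit and Pdgfc, where 13.5% of all genes passed it. All-gene counts at that p were 856, against 1303 with no filter on dim probes, 1662 without PNP replicate 2, 548 without PNP replicate 3 and 341 without control replicate 3. The share of these that was higher in PNP was 77.1%, against 47.4% scaled on the array median, 61.1% with quantile normalization and 57.4% in the authors' deposited values.

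Signs held under every alternative run for Pdgfb, Pdgfc, Hbegf, Nrg1, Kit, Csf1r, Vegfb and Ntrk2. Flt1 was below 0 in all 17 settings that tested it, but it entered only through the control arrays, where it was higher. Other genes changed sign under at least 1. With the replicate block 0 genes were called, 0 of them growth factor genes, and 605 of all genes had an unadjusted p under 0.05. Same-numbered samples deviated from their group means with correlations of -0.313, -0.225 and -0.034, so the numbers were not taken as pairs. The files hold no mean signal, so normexp was run on median signals. Slide row compares PNP array 1 alone with the controls. The cause of these changes was not tested.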
